A study of Mus musculus with 6 samples.

Results

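The genes described here are 8 mouse neuropeptide precursor genes, Npy, Sst, Vip, Cck, Penk, Pdyn, Tac1 and Crh, chosen by name and followed through every table of a study of nuclei from formalin-fixed, paraffin-embedded (FFPE) brain. All 8 had a row among the 19006 mouse genes of the SCRB-seq wells, the 21987 genes of the bulk SMART-Seq2 wells, the 23295 and 21608 genes of the plate nuclei and the 19905 genes of the droplet nuclei. The FFPE material came as scrolls cut at 50 µm from brains of C57BL/6J mice aged 8 to 12 weeks, labelled cortex. Paraffin was removed from the bulk samples with mineral oil under heat, with xylene under heat or with xylene at room temperature, and nuclei were then sorted. Wells and nuclei marked frozen stand in the same annotation tables, but the labels describe no frozen sample, so nothing is known here of its mice, age or dissection. The 6 GEO samples are 1 per assay or plate batch, and no animal is named for any well or nucleus. The wells are therefore technical wells of 1 sample, and every p-value below measures the spread between wells.

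Neuropeptide precursors are secreted proteins that convertases cut into short signalling peptides inside dense-core vesicles. In the forebrain each is made by restricted sets of neurons. Npy, Sst and Vip mark classes of cortical inhibitory interneurons, and Cck is made both by basket-type interneurons and by many excitatory neurons. Penk and Pdyn encode the opioid enkephalins and dynorphins, Tac1 encodes substance P and neurokinin A, and these precursors are known from spiny neurons of the striatum. Crh encodes corticotropin-releasing hormone, the hypothalamic trigger of the stress response, which is also made by some cortical interneurons. Several of these genes are textbook targets of cAMP signalling through the cAMP response element (CRE), the palindrome TGACGTCA.

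The members are short genes. In GENCODE M21 on GRCm38 the member genes lie at chr6:49822710-49829507 on the plus strand (Npy), chr16:23889573-23890958 on the minus strand (Sst), chr10:5639218-5647617 on the plus strand (Vip), chr9:121489824-121495694 on the minus strand (Cck), chr4:4133531-4138819 on the minus strand (Penk), chr2:129686565-129699844 on the minus strand (Pdyn), chr6:7554879-7565834 on the plus strand (Tac1) and chr3:19693401-19695396 on the minus strand (Crh). Their median span was 6334 bases and their median exon length 1477 bases, against 17403 and 3498 bases over 21951 protein-coding genes. All 8 lay under both medians.

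Promoters were read from RefSeq on GRCm38.p6 over the 250 bases before each start, and 6 of the 8 members had an entry. The 30-base windows below are shown because they hold the whole or part of the CRE in this family. Each is written 5′ to 3′ on the gene's strand, and capitals mark the bases of the best-placed 8-base match that equal TGACGTCA.
Sst, chr16:23890874-23890903, minus strand: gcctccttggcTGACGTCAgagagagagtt
Vip, chr10:5639128-5639157, plus strand: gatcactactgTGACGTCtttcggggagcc
Cck, chr9:121495726-121495755, minus strand: gtcctgctggactgCGTCAgcactgggtaa
Tac1, far window, chr6:7554850-7554879, plus strand: cttccctaaaaTtgCGTCAtttcgaacaca
Tac1, near window, chr6:7555004-7555033, plus strand: tggctctacaggctCGTCAcgcctgagata
The whole element was found in Sst, 48 bases before its start. The Vip window equals it in 7 of 8 bases, 79 bases before the start, and the Cck window in 5 of 8, 50 bases before it. Both Tac1 windows belong to the same start and equal it in 6 of 8 and 5 of 8 bases, 200 and 46 bases before it. On both strands the full element TGACGTCA occurred in 1.55% of 32851 RefSeq promoter windows of the same length, and its part TGACG, which also lies within the full element, in 17.8%. The Vip promoter holds TATAAA at 3 positions, the nearest 30 bases before the start, while 12.4% of all windows hold it. In GENCODE M21 the Vip and Cck windows lie upstream of the gene, the Sst window and the near Tac1 window lie in an annotated exon, and the far Tac1 window ends on the first exonic base. The Npy and Pdyn windows held none of these letters. A match is a description of the window and not a measured binding site.

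Depth and composition differed between the arms that are compared below. Mouse counts per SCRB-seq well ran from 7512 to 167144, with medians of 26386 (mineral oil), 67426 (heated xylene), 64960 (room-temperature xylene) and 58642 (frozen). The SMART-Seq2 wells held 270363 to 942966 counts. Against the label cortex, 5 measured cerebellar granule neuron markers (Gabra6, Cbln3, Cbln1, Zic1, Pax6) summed to medians of 1045 to 1643 CPM (counts scaled by the total of the well) in the 3 SCRB-seq FFPE groups and to 0 in frozen wells, where the highest well reached 67.8 and Gabra6 and Cbln3 were at 0. In the SMART-Seq2 wells the same list summed to medians of 931 to 1665 CPM in FFPE and was at 0 in all 3 frozen wells. Cortical projection neuron markers had medians of 345 to 488 CPM in the FFPE groups of SCRB-seq against 919 in frozen wells. Striatal spiny neuron markers had 453 to 495 against 1285, with Drd1 and Adora2a at 0 in all 3 FFPE groups. Summed GABAergic interneuron markers had 363 to 1278 against 257, but the sum does not hold for each gene. In SCRB-seq Gad2, Slc32a1 and Lhx6 were at 0 with mineral oil, and Lhx6 with heated xylene. The frozen group and the room-temperature xylene group had counts of all 8 genes. In SMART-Seq2 Lhx6 was at 0 in all 3 FFPE groups, Pvalb with room-temperature xylene, and Slc32a1 and Pvalb in the frozen wells. Glial markers differed too, with astrocyte markers at 782 to 1100 CPM against 436, and oligodendrocyte markers at 1756 and 1716 CPM with xylene and 182 with mineral oil against 354. Brain region, fixation and source of the nuclei therefore cannot be told apart in any FFPE against frozen comparison.

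SCRB-seq is a low-input method that was run here on wells of 10 or 100 nuclei, with 16 wells for each of the 3 FFPE methods and 16 frozen wells. The 8 wells of 1 treatment and 1 nuclei number form 1 library pool. Most member genes were sparse in the FFPE wells. All but Penk were found in a larger share of the frozen wells, by little for Tac1 (4 of 16 against 10 of 48). How many of all genes go this way was not counted. The median well held 3 of the 8 members in frozen wells and 2 in each xylene group. In mineral oil the median well held 0 members, and 9 of its 16 wells had no count of any member. In bulk wells, fewer cells of a type and less RNA per cell cannot be told apart.

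**Figure D1:**
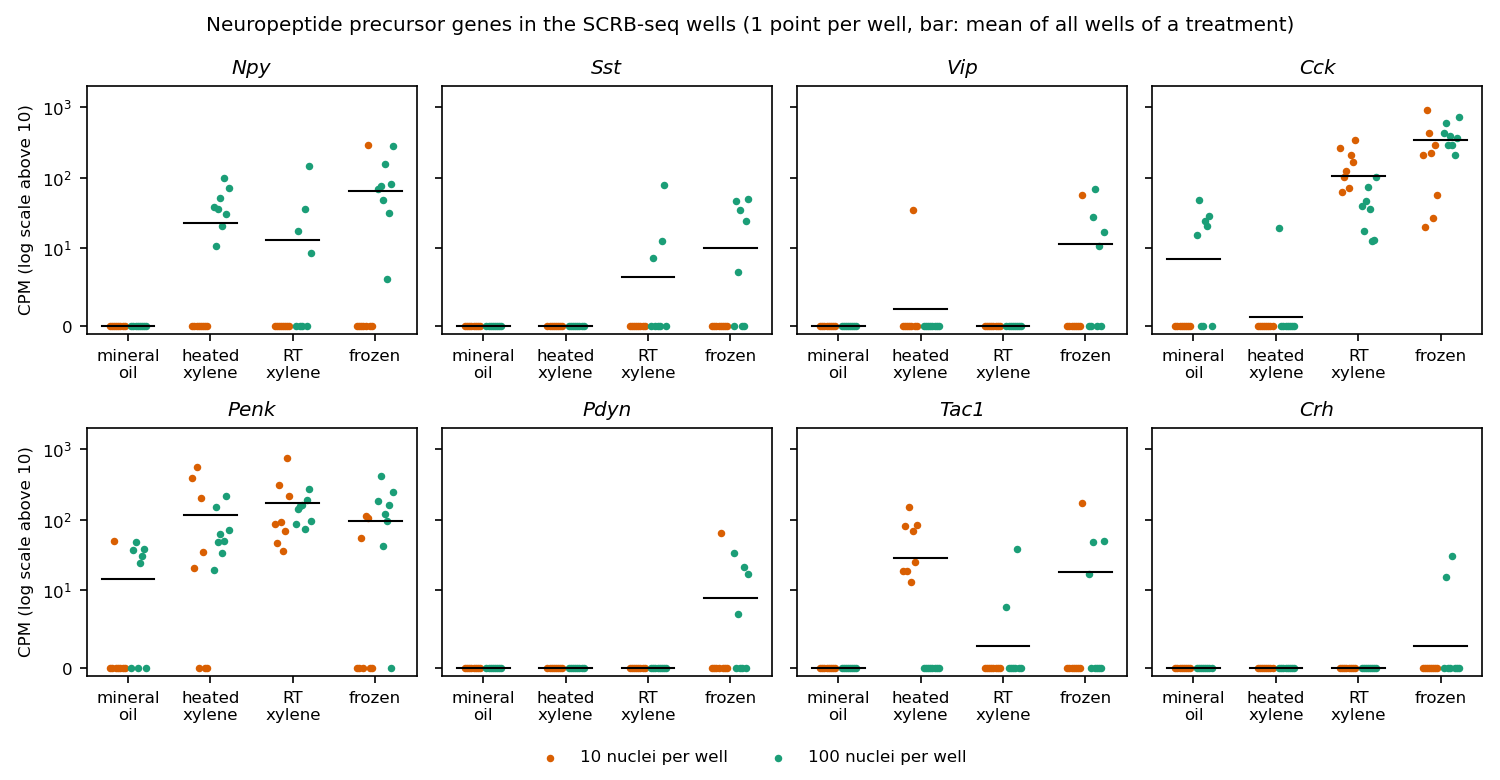
CPM of each member in each SCRB-seq well (vertical axis, logarithmic above 10), with 1 point per well in the color of its nuclei number and a bar at the mean of all wells of a treatment (RT: room temperature). Cck had counts in all 16 frozen wells and all 16 room-temperature xylene wells, and Pdyn and Crh were at 0 in the FFPE wells.

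Among the precursors of inhibitory interneurons, Npy had counts in 8 of 8 frozen wells of 100 nuclei, with 1, 3, 4, 5, 7, 9, 10 and 17 counts, and in 1 of 8 frozen wells of 10 nuclei, with 11. In heated xylene 8 of 8 wells of 100 nuclei held 1 to 8 counts (44.7 ± 28.8 CPM, SD, n = 8), and 0 of 8 wells of 10 nuclei held any. Room-temperature xylene gave Npy counts in 4 wells of 100 nuclei, the highest with 11 counts, and mineral oil in 0 of 16 wells. The frozen and FFPE wells overlapped, and the frozen wells of 100 nuclei averaged 93.8 ± 88.3 CPM (SD, n = 8). Over all wells Npy averaged 11.8 CPM in FFPE and 65.2 CPM in frozen wells, and 45 of 48 FFPE wells lay below the frozen mean (2-sided permutation test over wells, unadjusted p = 0.00164).

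Sst, the precursor of the inhibitory hormone somatostatin, had 12 counts in 5 of 16 frozen wells and 8 counts in 3 of 48 FFPE wells. Those 3 wells were all room-temperature xylene wells of 100 nuclei, and 1 of them held 6 of the 8 counts. Mean Sst was 2.09 CPM in FFPE and 10.1 CPM in frozen wells (2-sided permutation test, unadjusted p = 0.0381). Vip, the precursor of vasoactive intestinal peptide, had 11 counts in 5 of 16 frozen wells and 1 count in 48 FFPE wells, in heated xylene, with means of 11.3 and 0.720 CPM (2-sided permutation test, unadjusted p = 0.00402). Counts this low place each of these genes in a handful of wells, so the groups overlapped at 0.

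Cck was the member with counts in the most frozen wells. Its 8 frozen wells of 100 nuclei held 20, 23, 25, 39, 42, 44, 45 and 49 counts (414 ± 173 CPM, SD, n = 8), and the 8 frozen wells of 10 nuclei held 1 to 17. Room-temperature xylene had Cck in 16 of 16 wells, with 4 to 43 counts in wells of 10 nuclei (167 ± 99.0 CPM, SD, n = 8) and 1 to 11 in wells of 100 nuclei (42.6 ± 31.8 CPM, SD, n = 8). Mineral oil had 12 counts in 5 of 16 wells, all of 100 nuclei, and heated xylene had 1 count in 16 wells. Most FFPE wells were thus below most frozen wells, although the ranges overlapped, and the room-temperature wells of 10 nuclei stood above the other FFPE wells. Mean Cck was 38.2 CPM in FFPE and 343 CPM in frozen wells, with 47 of 48 FFPE wells below the frozen mean (2-sided permutation test, unadjusted p = 1.00e-05, the smallest that 100000 resamples can give).

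Among the opioid precursors, Penk was counted in most FFPE wells and Pdyn in none. Penk, the enkephalin precursor, had counts in 10 of 16 frozen wells (96.2 ± 115 CPM, SD, n = 16), in 16 of 16 room-temperature xylene wells (174 ± 173), in 13 of 16 heated xylene wells (117 ± 159.5) and in 6 of 16 mineral oil wells (14.2 ± 19.7). Its mean was 102 CPM in FFPE and 96.2 CPM in frozen wells, a difference within the spread of the wells (2-sided permutation test, unadjusted p = 0.902). The order turned with the nuclei number: in wells of 100 nuclei the means were 83.6 CPM in FFPE and 158 CPM in frozen wells. Pdyn, the dynorphin precursor, had 10 counts in 5 of 16 frozen wells and 0 in 48 FFPE wells, which allows up to 1.01 CPM (3 counts over the FFPE wells together, counting error only) beside 9.39 CPM in the pooled frozen wells (2-sided permutation test of mean CPM, unadjusted p = 4.70e-04).

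Tac1, the substance P precursor, was present in all 8 heated xylene wells of 10 nuclei, with 1, 1, 1, 1, 2, 3, 8 and 8 counts (57.6 ± 47.8 CPM, SD, n = 8), and in 0 of the 8 heated xylene wells of 100 nuclei. Frozen wells held Tac1 in 4 of 16, room-temperature xylene in 2 of 16 and mineral oil in 0 of 16. The 25 counts of the heated wells of 10 nuclei were 25 of the 29 Tac1 counts of all FFPE wells. FFPE and frozen means were 10.6 and 17.9 CPM (2-sided permutation test, unadjusted p = 0.479). Crh had 6 counts in 2 of 16 frozen wells and 0 in 48 FFPE wells (2-sided permutation test, unadjusted p = 0.0595).

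Of the 8 permutation tests, 5 gave an unadjusted p under 0.05 (Npy, Sst, Vip, Cck, Pdyn). This test was run on the members alone, and the share of all genes that pass it is not known. The number 5 of 8 is therefore not read as particular to the members. In the edgeR fit below, 56.4% of 1478 tested genes were called in the same contrast. With the 6 FFPE and 2 frozen library pools in place of wells, an alternative chosen after seeing the data, the exact test kept Vip, Cck and Pdyn at its smallest possible p of 0.0357, and gave 0.0714 for Npy and 0.25 for Sst. A gene with few counts can appear in all wells of a pool: of genes with 20 to 100 counts in a pool, 26.9% to 54.1% were found in all 8 wells.

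In the fit across genes with edgeR (quasi-likelihood test, Benjamini-Hochberg adjustment over all genes tested), only Cck passed the filter on low counts. It fell by 4.25 on the log2 scale in FFPE against frozen wells (edgeR, SE 0.35, adjusted p = 9.57e-18), as the mean of the 3 log2 levels of the methods minus the frozen level. In this contrast 56.4% of the 1478 tested genes were called, with 468 higher and 365 lower. With DESeq2's size factors 66.5% were called, 309 higher and 674 lower, the median of all genes moved from 0.08 to -0.58, and Cck stood at -4.91. Without a filter, 6 of the 8 members fell (edgeR, adjusted p under 0.05) while 25.2% of all 19006 genes were called. The falls in log2 were Cck -4.19, Npy -2.75, Pdyn -2.50, Vip -2.35, Sst -1.94 and Crh -1.60. With a filter of at least 30 counts over wells 3 of 4 tested members were called (Cck, Npy and Tac1), against 32.8% of all genes, and in wells of 100 nuclei alone Cck and Penk were, against 45.5%. Without a filter Penk was at -0.32 (edgeR adjusted p = 0.661) and Tac1 at -1.13 (edgeR adjusted p = 0.0551). Fitted values of genes at 0 in a group depend on the prior count and are not bounds. The part of the marker differences above in these results was not tested.

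Bulk SMART-Seq2, a full-length method, had 3 wells per treatment, of 100, 50 and 10 nuclei. Here too Cck was lower in FFPE, but most of its FFPE counts lay in heated xylene wells, while in SCRB-seq most lay in room-temperature xylene wells. Cck had 18, 19 and 21 counts in the frozen wells of 100, 50 and 10 nuclei (38.6, 70.3 and 23.6 CPM), 8, 41 and 38 in heated xylene (11.5, 52.3 and 40.3 CPM), 1, 0 and 0 in room-temperature xylene and 0 in the 3 mineral oil wells. Heated xylene and frozen wells overlapped in part, and the other methods lay below both. Mean Cck was 11.8 CPM in 9 FFPE wells and 44.1 CPM in 3 frozen wells (exact 2-sided permutation test, unadjusted p = 0.0318, smallest possible 0.00455). In edgeR it fell by 4.76 on the log2 scale (SE 1.25, adjusted p = 0.0307), in a contrast in which 4.09% of 9092 genes were called. Leaving out any of 8 of the 12 wells ended that call, with adjusted p from 0.0370 to 0.220 over the 12 fits (edgeR). These wells were the 3 frozen wells, the heated xylene wells of 100 and 50 nuclei, the room-temperature xylene well of 50 nuclei and the mineral oil wells of 100 and 50 nuclei.

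**Figure D2:**
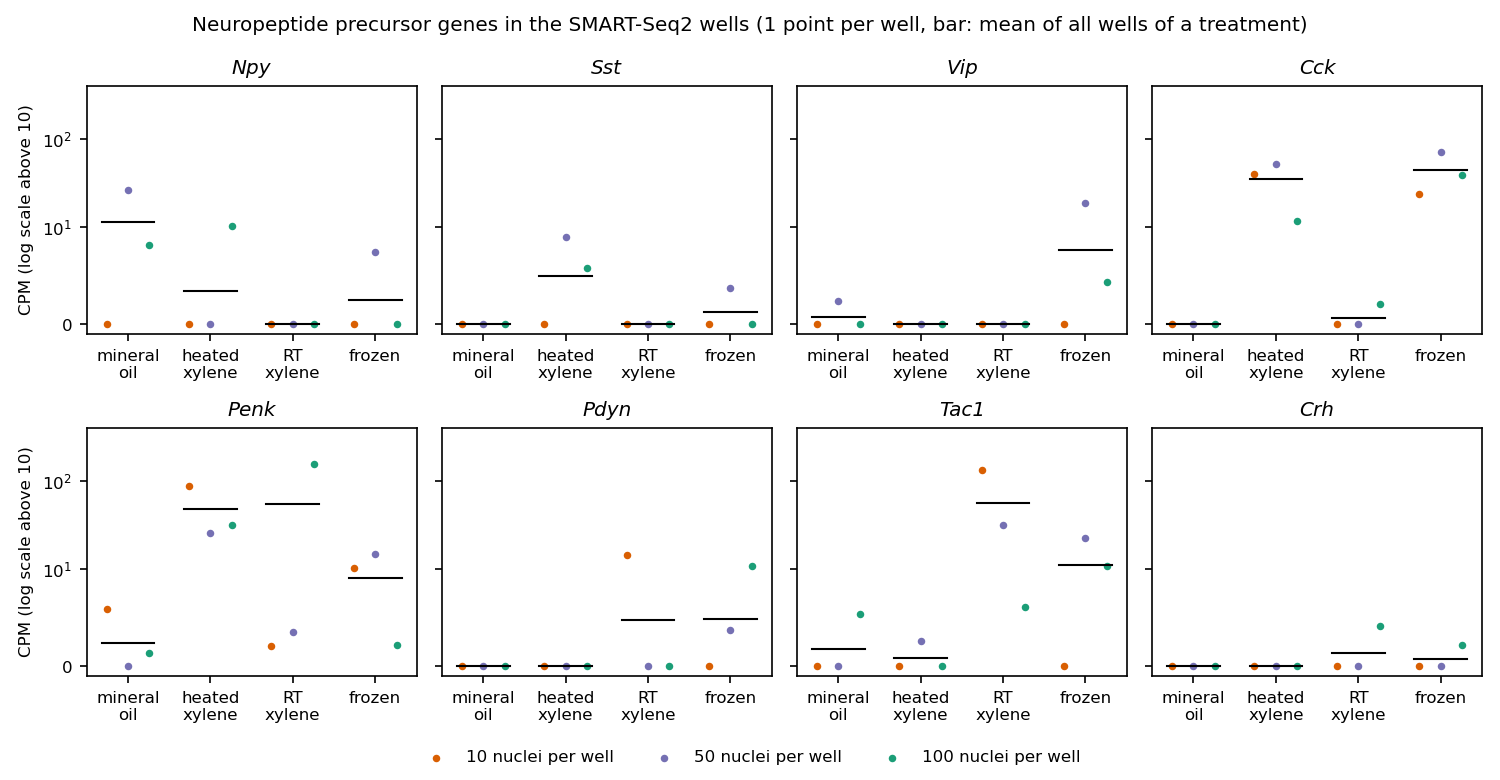
CPM of each member in each bulk SMART-Seq2 well (vertical axis, logarithmic above 10), with 1 point per well in the color of its nuclei number and a bar at the mean of 3 wells. Cck was present in the heated xylene and frozen wells, and Tac1 reached 132 CPM in the room-temperature xylene well of 10 nuclei.

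Mean Penk was higher in FFPE than in frozen wells, but not beyond the spread of the wells. It had 1, 4 and 9 counts in the frozen wells of 100, 50 and 10 nuclei, 22, 20 and 83 with heated xylene, 77, 2 and 1 with room-temperature xylene, and 1, 0 and 3 with mineral oil. All 3 heated xylene wells were above the frozen wells, while room-temperature xylene owed its level to 1 well (157 CPM). The means of 35.0 CPM in FFPE and 9.01 CPM in frozen wells did not differ beyond the spread of the wells (exact 2-sided permutation test, unadjusted p = 0.505; edgeR log2 difference 0.88, adjusted p = 0.878). Without that 1 room-temperature well the edgeR log2 difference was -0.40. Tac1 had 3, 18 and 65 counts in room-temperature xylene, 4, 0 and 0 in mineral oil, 0, 2 and 0 in heated xylene and 5, 6 and 0 in frozen wells (exact permutation p = 0.823, unadjusted; edgeR log2 difference -1.27, adjusted p = 0.787).

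The sparse members gave few counts. Vip had 2, 5 and 0 counts in the frozen wells and 1 count in 9 FFPE wells (exact 2-sided permutation test, unadjusted p = 0.0455). With labels permuted within nuclei number the exact permutation p was 0.0625. Npy had 6 and 11 counts in the mineral oil wells of 100 and 50 nuclei, 7 in heated xylene of 100 nuclei, 2 in frozen of 50 nuclei and 0 elsewhere. Sst was found in heated xylene (4 and 7 counts) and in 1 frozen well (1 count), Pdyn in 1 room-temperature xylene well (7 counts) and 2 frozen wells (5 and 1), and Crh in 1 room-temperature xylene well (2 counts) and 1 frozen well (1 count). For Npy, Sst, Pdyn and Crh the exact 2-sided permutation p ran from 0.127 to 1, unadjusted.

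Between the deparaffinization methods, mineral oil had the fewest member counts in SCRB-seq. Summed over the members it had 27 counts, or 39.5 CPM, against 162 CPM (heated xylene), 299 CPM (room-temperature xylene) and 548 CPM (frozen). Cck was called in each SCRB-seq pair (edgeR): it was higher in mineral oil than in heated xylene by 2.53 on the log2 scale (SE 0.69, adjusted p = 0.00638), lower in heated than in room-temperature xylene with a log2 difference of -5.22 (SE 0.61, adjusted p = 1.85e-09), and lower in mineral oil than in room-temperature xylene with -2.70 (SE 0.53, adjusted p = 1.93e-04). The shares of all tested genes called in these pairs were 15.2%, 6.16% and 14.6%. In wells of 100 nuclei alone the last difference was -0.95 and was not called (edgeR adjusted p = 0.286).

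Fitted without a filter, 4 of the 8 members were called between mineral oil and heated xylene, against 19.4% of all genes (edgeR). Npy (-3.73), Penk (-2.67) and Tac1 (-3.91) fell in mineral oil on the log2 scale, and Cck rose (2.37). Between heated and room-temperature xylene 3 members were called, against 16.3% of all genes: Cck (-5.23) and Sst (-2.15) were lower in heated xylene and Tac1 (2.48) was higher. Between mineral oil and room-temperature xylene 4 were called, against 16.7% of all genes. Penk (-3.32), Npy (-2.99), Cck (-2.87) and Sst (-2.15) were lower in mineral oil. All 8 Sst counts of the FFPE wells lay in 1 library pool, the room-temperature xylene wells of 100 nuclei. All 25 Tac1 counts of heated xylene lay in its pool of 10 nuclei. Npy counts of each xylene method lay in its pool of 100 nuclei. These calls measure the spread between wells and not between pools. With a filter of at least 30 counts the 3 pairs gave 4, 2 and 3 of the 4 tested members, against 29.3%, 23.1% and 24.6% of all genes. The median depth of the mineral oil wells was the lowest of the 3 methods, as were their summed GABAergic interneuron markers (363 CPM against 1211 and 1278) and oligodendrocyte markers (182 CPM against 1756 and 1716). The part of these differences in the calls was not tested. In the SMART-Seq2 wells 0 of the 3 tested members were called in any pair (edgeR), where 0.0440% of genes were called between mineral oil and heated xylene and 0 in the other pairs. At an unadjusted p under 0.05 there were 6 member results over the 3 pairs, 2 in each, beside 6.07%, 4.38% and 7.20% of all genes. These 3 members are sparse here and pass the filter through the methods where they are high. The 6 results are therefore not read against those shares. DESeq2 called 1 member, Cck between mineral oil and heated xylene (log2 difference -6.70, adjusted p = 0.0429), and 0.737%, 0.0220% and 0.572% of all genes in the 3 pairs.

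The genes that process and release peptides were measured far better than the precursors. Of 15 precursor processing and dense-core vesicle genes, 11 were tested in SCRB-seq, and 6 fell and 2 rose in FFPE against frozen wells (edgeR), with a list median of -0.77 beside 0.08 over all genes. The share of all tested genes called in this contrast was 56.4%. The 6 were Pam, the enzyme that amidates peptides (-1.89), Cadps, which primes dense-core vesicles (-1.65), Pcsk1n, an inhibitor of the convertase PC1 (-1.42), the vesicle membrane proteins Ptprn (-1.40) and Ptprn2 (-0.83), and the convertase Pcsk2 (-0.77). Cadps2 (0.89) and the carboxypeptidase Cpe (0.55) rose, but with DESeq2's size factors neither was called, at 0.26 and -0.15. Scg5 was called there, at -1.26, which makes 7 lower and 0 higher with a list median of -1.50. Of all tested genes 66.5% were called with those size factors, and their median was lower too, as given above. In SMART-Seq2 3 of 14 tested genes were called, all lower: Pam (-2.26), Scg5, a chaperone of PC2 (-1.85), and Ptprn2 (-1.63), with a list median of -0.48 beside -0.13 over all genes and a share of 4.09% of all genes called. Pcsk1n stood in the opposite direction there, at 2.77, and was not called (edgeR adjusted p = 0.296). Between the methods mineral oil was lower for Ptprn and Cadps than heated xylene (-3.50 and -1.57) in SCRB-seq. It was also lower for Ptprn, Pcsk1n and Cadps than room-temperature xylene (-2.91, -1.63 and -1.59), and Pcsk1n was lower in heated than in room-temperature xylene (-1.60).

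Of 19 receptor and binding protein genes 0 passed the filter in SCRB-seq and 5 in SMART-Seq2, among them Cckbr, Vipr1 and Vipr2. A gene this sparse passes the filter through the group where it is high. Their calls in that fit are therefore not read as results, and the counts are given. Cckbr, the main brain receptor for cholecystokinin, had 123 counts in 3 frozen wells and 17 in 9 FFPE wells. Vipr1, a receptor for the Vip peptide, had 83 and 11. Vipr2, the other receptor for the Vip peptide, went the opposite way, with 332 counts in 9 of 9 FFPE wells and 0 in 3 frozen wells. In SCRB-seq the same genes had 13.8 and 71.3 CPM (Cckbr), 9.74 and 26.3 CPM (Vipr1) and 30.9 and 3.75 CPM (Vipr2) in pooled FFPE and frozen wells, with no test. Of 17 other precursor genes none was tested. In SCRB-seq 14 of the 15 with a row had a count in frozen wells and 7 in the FFPE wells, led there by Nts, the neurotensin precursor, with 138 counts in 40 of 48 wells. In SMART-Seq2 their counts summed to 116 in 3 frozen wells and 33 in 9 FFPE wells, with Grp, the gastrin-releasing peptide precursor, at 66 counts in the frozen wells.

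Single nuclei were sorted into plates and read with SMART-Seq2: 137 frozen nuclei and 143 FFPE nuclei on 2 plates each in a table of the whole series, and 98 FFPE nuclei of batch 1. Nuclei are not replicates, so no test was made across them. Many had closely correlated profiles. Pearson correlations between nuclei, with the members left out, reached 0.99 against medians of 0.33 among frozen and 0.25 among FFPE nuclei. Linking nuclei correlated above 0.7 left 60 profile groups of the 137 frozen nuclei, the largest of 29, 89 groups of the 143 FFPE nuclei and 90 of the 98 in batch 1. At 0.8 there were 73 frozen groups, the largest of 9, and 107 FFPE groups. Frozen nuclei were deeper, with medians of 255329 counts and 4382 genes against 47887 counts and 1635 genes in FFPE. Shares of nuclei are therefore given for all nuclei, for 1 nucleus per profile group and after thinning each nucleus to 10000 counts, which left 127 frozen and 135 FFPE nuclei. Cerebellar granule neuron markers pooled to 451 CPM in FFPE and 7.74 CPM in frozen nuclei, and Tbr1, a deep-layer cortical gene, was at 0 in FFPE. The part of these differences in the shares was not tested.

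Each of the 8 members was counted in a smaller share of FFPE than of frozen nuclei, and this order held for all nuclei, for 1 nucleus per group and after thinning. Most genes went the same way: of all genes with a count in either arm, 89.6%, 77.6% and 78.8% had a smaller share in FFPE in these 3 settings. Npy had counts in 65.7% of frozen nuclei (exact binomial 95% interval 57.1% to 73.6%) and 6.29% of FFPE nuclei (2.92% to 11.6%), or in 35 of 60 and 6 of 89 profile groups, and in 47.2% and 3.70% after thinning. Sst was counted in 45.3% and 14.7% (28.3% and 9.63% thinned), and Vip in 27.7% and 1.40% (7.87% and 0% thinned). Cck was counted in 77.4% (69.45% to 84.1%) of frozen and 35.0% (27.2% to 43.4%) of FFPE nuclei, or 51.2% and 25.2% after thinning. Penk was counted in 44.5% and 20.3% (22.8% and 8.15% thinned), Pdyn in 29.2% and 2.10% (6.30% and 0% thinned), Tac1 in 38.0% and 9.79% (16.5% and 5.93% thinned), and Crh in 15 frozen nuclei and 1 FFPE nucleus. For Npy both plates of an arm gave like shares, 62.3% and 69.1% of the nuclei on the frozen plates and 7.25% and 5.41% on the FFPE plates.

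**Figure D3:**
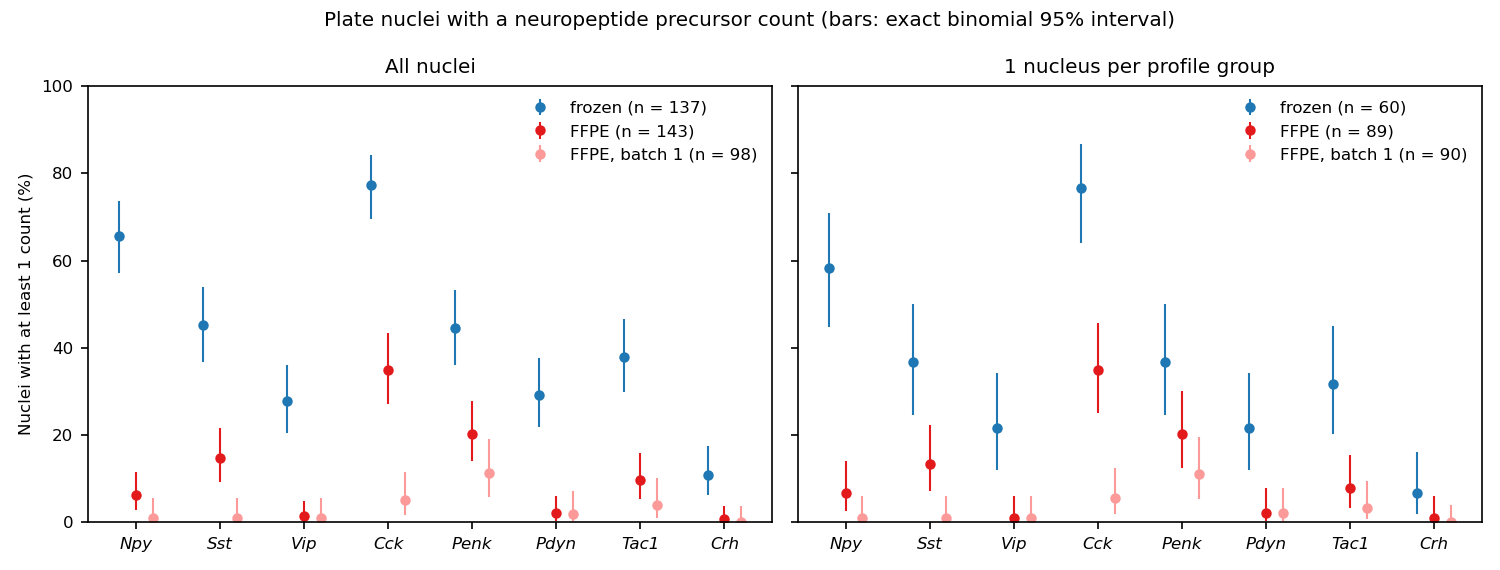
Share of plate nuclei with at least 1 count of each member (vertical axis, %) for all nuclei at left and for 1 nucleus per profile group at right, with exact binomial 95% intervals that cover counting error only. The frozen share lies above both FFPE sets for each member, from 65.7% against 6.29% for Npy to 10.95% against 0.699% for Crh among all nuclei.

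Levels within the nuclei separated the members further. Npy reached at least 100 CPM in 66 frozen nuclei, with a median of 754 CPM and a highest value of 12027, and in 5 FFPE nuclei. Vip passed 100 CPM in 8 frozen nuclei and 0 FFPE nuclei, and those 8 held 2472 to 4260 CPM, with no nucleus between 100 and 2472. Cck passed 100 CPM in 67 frozen nuclei, with a median of 1221 CPM, and in 33 FFPE nuclei, with a median of 823 CPM. Among nuclei above that level the Cck values of both arms overlapped, with highest values of 8279 and 9376 CPM. Sst passed 100 CPM in 37 and 13 nuclei (medians 528 and 297 CPM), Penk in 29 and 14 (280 and 429 CPM), Tac1 in 19 and 6, and Pdyn and Crh in 8 frozen nuclei each and 0 FFPE nuclei.

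Pooled over nuclei, 7 members were lower in FFPE, beside 52.3% of 21275 genes: Cck at 911 CPM in frozen and 246 CPM in FFPE nuclei, Vip at 247 and 0.127, Sst at 162 and 49.6, Penk at 84.3 and 47.8, Pdyn at 35.9 and 0.254, Crh at 10.0 and 0.0423, and Npy at 488.5 and 7.96. Tac1 was higher, at 79.2 and 193 CPM, but 85.5% of its FFPE counts came from 2 nuclei, 1 of them at 27268 CPM. Without the 2 highest nuclei of each arm the Tac1 difference was -20.8 CPM. Pooling weights nuclei by depth. The deepest FFPE nucleus held 4973791 counts and was 1 of 9 in no batch table, while the 134 of batch 2 held at most 431562. Those 9 held 2637 of the FFPE Cck counts, 562 of the Penk counts and 606 of the Tac1 counts.

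**Figure D4:**
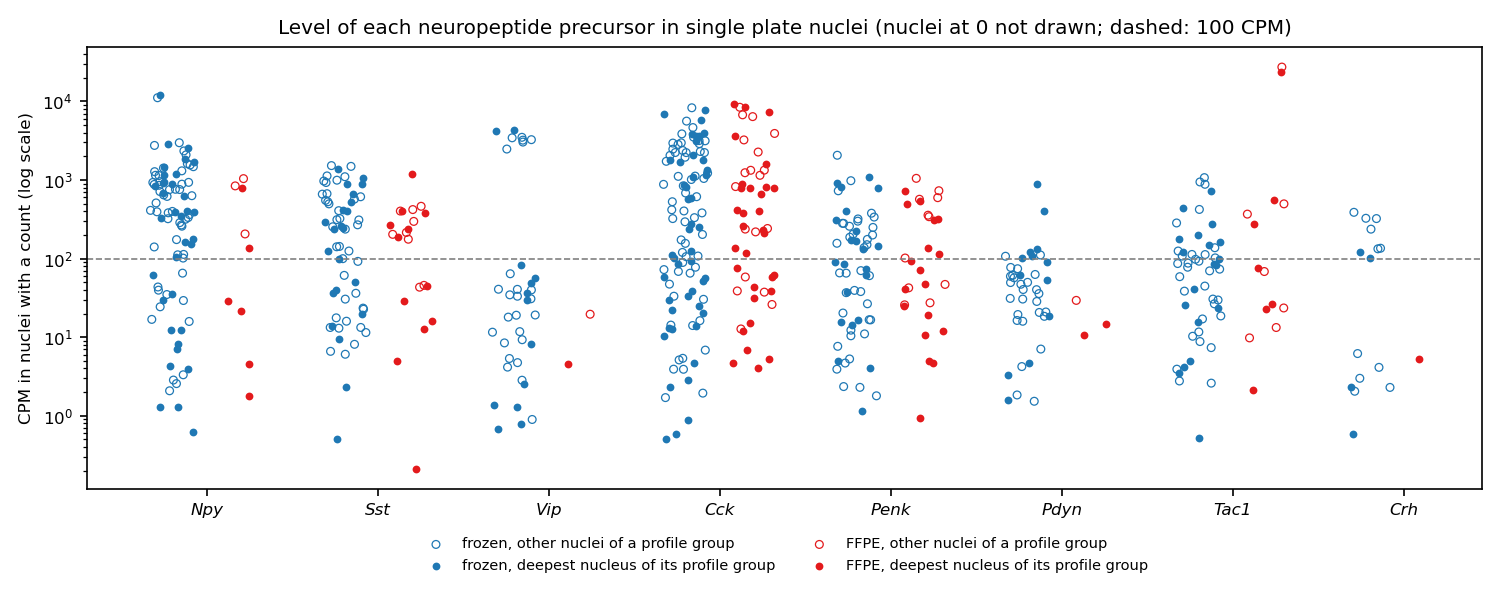
CPM of each member in every plate nucleus with a count (vertical axis, logarithmic), blue for frozen and red for FFPE, filled for the deepest nucleus of a profile group and open for the others. The dashed line marks 100 CPM, above which Vip has 8 frozen nuclei between 2472 and 4260 CPM and 0 FFPE nuclei.

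Frozen nuclei often held several members. The median frozen nucleus had counts of 3 members and the median FFPE nucleus of 0. At the level of 100 CPM, 27 frozen nuclei held 4 or more members and 40 held none, against 2 and 97 in FFPE. The 8 nuclei high in Vip fell in 2 profile groups at a correlation of 0.7 and in 5 at 0.8, so they may not be 8 separate observations. All 8 also held Npy at 100 CPM or more, with a median of 1971 CPM, and 7 held Crh, while 0 held Penk. All 8 carried the inhibitory neuron genes Gad1 (median 1886 CPM) and Gad2 and the interneuron gene Adarb2 (median 7758 CPM), while Slc32a1, the vesicular GABA transporter, had a count in 1 of the 8 and Lhx6, which marks another interneuron lineage, in 0. In the other 129 frozen nuclei the median of Gad1 was 0 and that of Adarb2 18.0 CPM.

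The nuclei high in Npy, Sst, Cck or Penk carried markers of more than 1 cell type. Of the 37 nuclei with Sst at 100 CPM or more, 34 also had Cck and 31 had Npy at that level, 9 had Gad1, 13 had Slc17a7, the vesicular glutamate transporter of excitatory neurons, and 34 had Mbp, the myelin basic protein gene of oligodendrocytes, at a median of 1625 CPM. Of the 100 other nuclei, 22 had Gad1, 13 had Slc17a7 and 45 had Mbp at that level, with an Mbp median of 72.1 CPM. Mbp had medians of 1563 CPM in the nuclei high in Npy, 1473 in those high in Cck and 2633 in those high in Penk, against 64.9, 13.9 and 98.2 CPM in the rest. Ppp1r1b, a gene of striatal spiny neurons, reached 100 CPM in 26 of the 37 Sst nuclei and 14 of the 100 others, while Drd1, Drd2 and Adora2a of the same marker list reached it in 0 of the 37. These nuclei may not be separate observations. At a correlation of 0.7 the largest profile group among them held 24 of the 66 nuclei high in Npy, 21 of the 37 high in Sst, 29 of the 67 high in Cck and 17 of the 29 high in Penk, and at 0.8 the high nuclei fell in 33, 19, 37 and 15 groups. Whether these wells held more than 1 nucleus or free RNA was not tested.

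In FFPE fewer nuclei were high in any member. Of 14 nuclei with Penk at 100 CPM or more, 12 also had Cck and 6 had Sst at that level, and of 5 with Npy, 2 had Cck. All 14 Penk nuclei also had Mbp at that level (median 2136 CPM against 294 in the rest) and 11 had the cerebellar gene Cbln1, and they fell in 8 profile groups at a correlation of 0.7. The 9 FFPE nuclei that stand in no batch table held counts of Cck in 8, Penk in 6 and Sst and Tac1 in 5 each. Without them Cck was counted in 31.3% and Penk in 17.2% of FFPE nuclei, Pdyn and Vip in 1 of 134 each and Crh in 0, and 0 FFPE nuclei held 4 or more members at 100 CPM. In batch 1 Penk was counted in 11 of 98 nuclei, Cck in 5, Tac1 in 4, Pdyn in 2, Npy, Sst and Vip in 1 each, and Crh in 0, which allows a share of up to 3.06% (3 of 98 nuclei, counting error only). Plate MB17 held 1912 of the 2384 Penk counts of that batch. Batch 1 had a median of 180584 counts per nucleus, above that of the other FFPE nuclei.

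Among the other genes of the pathway, Cckbr led the receptors in frozen nuclei, with counts in 69, followed by Crhr1, the main receptor for the Crh peptide, in 54, Npy1r in 36 and Sstr3 in 18. The other precursors with the most frozen counts were Cartpt, counted in 44 nuclei, Tac2 in 31, Hcrt, the orexin precursor of the hypothalamus, in 6 and Cort in 30. In FFPE nuclei the leaders were Pomc and Avp, both known from the hypothalamus, in 11 nuclei each, Cartpt in 12 and Pnoc in 11.

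The droplet library is 1 FFPE sample of 7031 nuclei with 235 to 998 unique molecular identifiers (UMIs) each, a median of 325. The authors' annotation puts them in 12 classes. At this depth 5332 nuclei held no UMI of any member, 1526 held 1 member, 164 held 2 and 9 held 3. Cck had 1041 UMIs in 890 nuclei, Sst 411 in 328, Npy 381 in 335 and Penk 240 in 225. Vip (39 UMIs), Tac1 (35), Pdyn (21) and Crh (12) were too sparse for an order of classes. The authors' gene table marks 7 of the 8 members, Tac1 being the exception, as variable genes of their clustering, so the differences between classes are given as a description with no test.

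**Figure D5:**
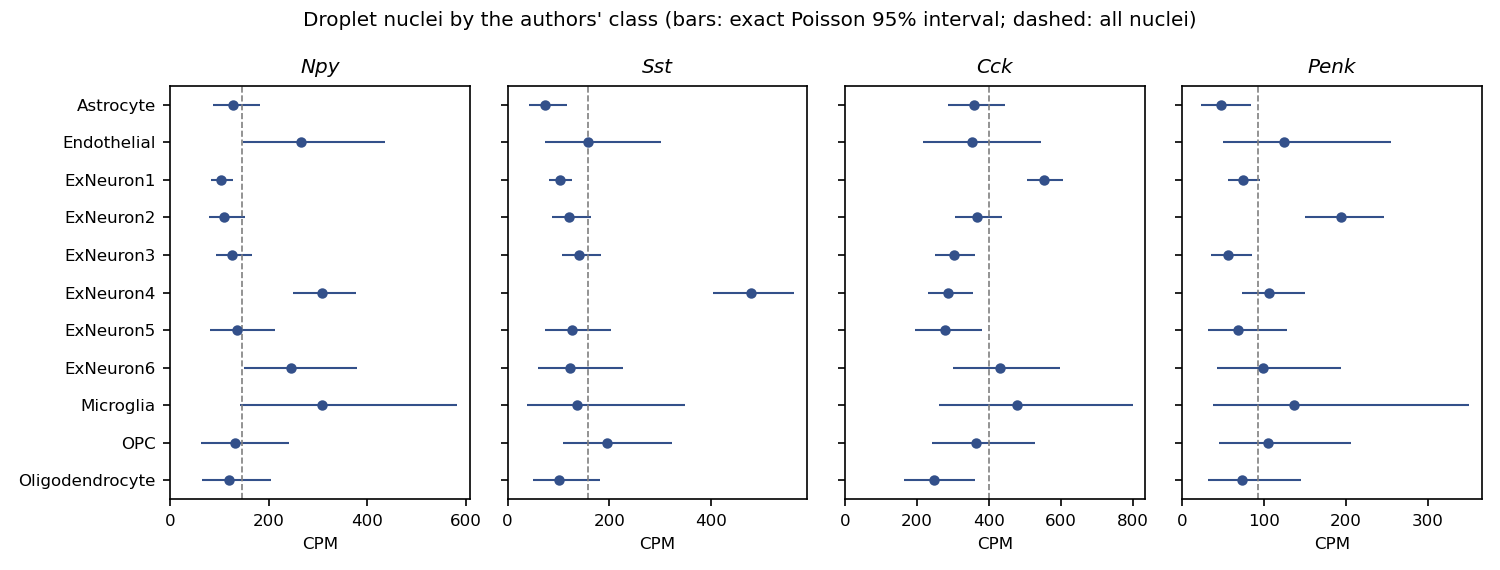
CPM of the 4 members with more than 100 UMIs (horizontal axes) in the authors' classes of at least 50 nuclei, with exact Poisson 95% intervals that cover counting error only and a dashed line at the level over all nuclei. Sst stands highest in ExNeuron4 at 479 CPM, and Cck in ExNeuron1 at 555 CPM.

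Sst was highest in 1 class. In the class named ExNeuron4 it had 145 UMIs in 75 of 716 nuclei, or 479 CPM (Poisson 95% interval 405 to 564), and the next class, OPC, had 196 CPM (110 to 323). A Sst UMI was present in 10.5% of ExNeuron4 nuclei and in 3.69% of oligodendrocyte nuclei, a class that should lack it, at median depths of 371 and 314 UMIs. Of 17 nuclei with 3 or more Sst UMIs, 16 were in ExNeuron4. This class also had the highest summed GABAergic interneuron markers of the classes with at least 50 nuclei, 2887 CPM with 8 of 8 genes present, and the lowest cortical projection neuron markers, 711 CPM. These values go against an excitatory label, so the class is called by its name alone.

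Npy was also highest in ExNeuron4, at 307.5 CPM (248 to 377), but microglia stood beside it at 307 CPM (140.5 to 583) on 9 UMIs, and endothelial nuclei had 265 CPM (148 to 437). These neighbours do not differ beyond counting error, and without the 1% of nuclei with the most UMIs microglia led, at 317 CPM against 275 in ExNeuron4. A Npy UMI was present in 8.24% of ExNeuron4 and 3.69% of oligodendrocyte nuclei, and 7 of the 8 nuclei with 3 or more Npy UMIs were in ExNeuron4. Npy and Sst occurred together in 32 nuclei.

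Cck was highest in ExNeuron1, the class with the highest summed cortical projection neuron markers of those with at least 50 nuclei (1413 CPM, beside 1350 in astrocytes), at 555 CPM (505 to 608). Microglia followed at 478 CPM (261 to 802), which overlaps, and oligodendrocytes were lowest at 248 CPM (164 to 361). A Cck UMI was present in 16.7% of ExNeuron1 and 8.39% of oligodendrocyte nuclei, at median depths of 331 and 314 UMIs, and 20 of the 22 nuclei with 3 or more Cck UMIs were in ExNeuron1. Penk was highest in ExNeuron2 at 194 CPM (150 to 246) and lowest in astrocytes at 47.0 CPM (23.5 to 84.1). A Penk UMI was present in 5.83% of ExNeuron2 and 2.01% of oligodendrocyte nuclei, at median depths of 296 and 314 UMIs. Nuclei with several Penk UMIs did not follow that order: of 14 with 2 or more, ExNeuron1 held the most, 4, and the 1 nucleus with 3 was an oligodendrocyte. After thinning to 300 UMIs, which kept 4451 nuclei, Sst and Cck kept their leading classes, whereas Npy led in endothelial nuclei (337 CPM) and Penk in ExNeuron6 (156 CPM, beside 147 in ExNeuron2).

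By likeness of pattern over 137 frozen plate nuclei (Pearson correlation of log2(CPM + 1), no test), the most alike gene was Rundc3a for Npy (0.65), Mt2 for Sst (0.81), Thoc6 for Vip (0.90), Hist1h2bc for Penk (0.70), Ube2j1 for Pdyn (0.71) and Tufm for Tac1 (0.75). With 1 nucleus per profile group, 60 in all, Ube2j1 stayed first for Pdyn (0.78). There, Slc48a1 was first for Sst (0.75), Man2c1os for Vip (0.81), Wdr18 for Penk (0.64) and Eif3l for Tac1 (0.80). These points share library depth and correlated profiles. Over 11 droplet classes of 1 library the most alike genes by log2(CPM + 10) were Noc2l for Npy (0.91), Cemip for Sst (0.83), Gmfb for Cck (0.82) and Orc5 for Penk (0.79).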

How the data were processed

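The values are read or UMI counts per gene, as the authors deposited them, in SCRB-seq wells, bulk SMART-Seq2 wells, plate nuclei and droplet nuclei. The builds hg19 and mm10 come from the submitters' processing notes. The sources used here do not say how reads were aligned and counted, or whether SCRB-seq UMIs were collapsed. Intervals and floors cover counting error only. SCRB-seq totals use mouse genes, named with the prefix mm10_.

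CPM were computed from the counts. Wells were grouped by treatment and tested in 1 edgeR 4.0.16 quasi-likelihood fit per assay (TMM, filterByExpr, R 4.3.3), with Benjamini-Hochberg adjustment over all genes tested and a threshold of 0.05. DESeq2 1.42.0 was the alternative. Each member's mean CPM was compared by a 2-sided permutation test over wells (100000 resamples, or exact, scipy 1.17.1), unadjusted over 8 members per assay. Scripts were tested on simulated data. Plate and droplet nuclei received no test and no doublet caller. Nuclei were thinned to 10000 counts or 300 UMIs.

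All 8 members are named. Up to 4 genes of a pathway list are named, those with the highest counts or called by the test, and so is the gene most like a member, except for a few likeness results that are not reported here. The members and lists were chosen with earlier results of these data known. Nuclei number is shared by wells across treatments and pairs no animals. Batch 3 held no nuclei and was not used.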

Additional observations from a re-analysis of the deposited data

Results flagged for a closer look

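In 13 of 30 SCRB-seq groups of 8 wells with a count, the highest well stood apart from the other 7. In 7 of the 13 the gene had a count in 1 well only, which sets that well apart by construction, so the rate of about 1 group in 20 that chance gives for continuous values does not hold for these sparse counts. In frozen wells of 10 nuclei the highest wells held 919 CPM of Cck, 292 CPM of Npy, 170 CPM of Tac1, 64.7 CPM of Pdyn and 56.8 CPM of Vip, and in frozen wells of 100 nuclei 68.7 CPM of Vip. In room-temperature xylene they held 749 CPM of Penk (10 nuclei), and 145 CPM of Npy, 78.85 CPM of Sst and 38.2 CPM of Tac1 (100 nuclei). In heated xylene they held 19.25 CPM of Cck (100 nuclei) and 34.5 CPM of Vip (10 nuclei), and with mineral oil 49.9 CPM of Penk (10 nuclei).

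Cck differed in opposite directions between heated and room-temperature xylene in the assays. The log2 difference was -5.22 in SCRB-seq (edgeR adjusted p = 1.85e-09) and 5.45 in SMART-Seq2 (edgeR adjusted p = 1). The difference between the assays was not tested, and this pair is 1 of 24 compared. Tac1 also took opposite orders in these methods, though not in every well. Its pooled levels in heated and room-temperature xylene were 22.2 and 3.43 CPM in SCRB-seq and 0.826 and 55.5 CPM in SMART-Seq2. Cck likewise took opposite orders in mineral oil and heated xylene, though not in every well. Its pooled levels there were 17.55 and 0.887 CPM in SCRB-seq. In SMART-Seq2 it had no count in mineral oil and counts in each heated xylene well.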

How the results depend on the processing

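In SCRB-seq 1 member, Cck, was tested and called in each contrast, and weaker filters tested more members. Between FFPE and frozen wells 6 members were called without a filter, 3 with at least 30 counts over wells and 2 in wells of 100 nuclei. Of all genes tested 25.2%, 32.8% and 45.5% were called in these fits. In the pair of mineral oil and heated xylene 4 were called without a filter and 4 with at least 30 counts, in the pair of heated and room-temperature xylene 3 and 2, and in the pair of mineral oil and room-temperature xylene 4 and 3. The shares of all genes called in these pairs are given above. In wells of 10 nuclei alone no member was tested. In SMART-Seq2, leaving out 1 well gave 0 to 1 called members in FFPE against frozen, and the method pairs went from 0 to 1 with DESeq2.

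Of the permutation results, 5 members in SCRB-seq became 3 with library pools, and 2 in SMART-Seq2 became 1, with Vip lost, when labels were permuted within nuclei number. In droplets 2 of 4 members kept their leading class after thinning. Leaving out 1 SMART-Seq2 well moved the log2 difference of Penk from -0.40 to 1.41 (FFPE minus frozen) and from -0.82 to 4.17 (heated minus room-temperature xylene), and that of Tac1 from -2.30 to 3.27 (mineral oil minus heated xylene). Penk in heated minus room-temperature xylene was -0.00466 without a filter. The SMART-Seq2 difference of Tac1 in FFPE minus frozen wells, 8.78 in mean CPM, was -0.0761 on the log2(CPM + 10) scale, and the plate difference of Tac1 was -20.8 CPM without the 2 highest nuclei of each arm. The cause of these moves was not tested, except that weaker filters test more genes. With nuclei number as a replicate block, Cck was at -4.27 in SCRB-seq and -4.70 in SMART-Seq2 (edgeR adjusted p = 0.0447), and the block changed no member call of these edgeR fits. Library pools, 1 nucleus per profile group, the level of 100 CPM and leaving out the 2 highest nuclei were chosen after seeing the data.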
